A study of Homo sapiens with 21 samples.

Results

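ER-beta, the estrogen receptor encoded by ESR2, is a transcription factor activated by hormone. Of the regions it occupied after estradiol in the cell line MDA-MB-231-ER-beta, 4039 of 26861 lay at one-directional promoters of protein-coding genes. A region was taken as a member when its summit, the base with the most signal, fell no more than 1000 bp before and 100 bp after the transcription start site (TSS) of a protein-coding gene in GENCODE 44 (hg38) and every gene so hit was on the same strand. The rule used position only, not strength or overlap. The members made up 15.0% of the list, a further 370 regions sat at bidirectional promoters, with genes on both strands, and 22452 lay outside promoters. The label holds for protein-coding genes only: 589 members (14.6%) also had the TSS of a long non-coding RNA on the other strand within the same window.

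The data were chromatin immunoprecipitation with sequencing (ChIP-seq) for a Flag tag on ER-beta in MDA-MB-231-ER-beta, a derivative of the triple-negative breast cancer cell line MDA-MB-231 with a doxycycline-inducible copy of the receptor. All 3 groups received doxycycline at 100 ng/ml, for 24 h per the sample names, and then ethanol vehicle, 1 nM estradiol or the ER-beta agonist LY500307 for 3 h; the titles give LY500307 as 1 nM and the characteristics and protocol as 10 nM, so its dose is uncertain. The labels list 4 ChIP and 3 input libraries per treatment, but each treatment had 1 pooled list of regions, so there is no replicate error, the depth is unknown and treatments were not tested against each other. The receptor was an introduced, induced copy, whether the line is a single clone is not given in the sources used here, and no group without doxycycline was analysed here.

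Estrogen receptors bind DNA as dimers at the estrogen response element (ERE), an inverted repeat of the half-site GGTCA with a spacer of 3 bases. They can also be held at DNA through other factors, such as AP-1 (Fos and Jun proteins) and SP1, and many of their sites lie in enhancers far from genes. Most human promoters are CpG islands, stretches of GC-rich DNA that keep their CpG dinucleotides, are usually unmethylated and open, and carry sites for SP1, ETS, NRF1 and similar factors.

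The following sequences show the forms of element seen within 100 bp of the summits, read from hg38 on the strand of the gene. Not every window of the first set includes the summit itself. The first set shows EREs in capitals with 24 bp on each side. MANEAL, PXDN, PIP5KL1, AMOTL2 and NRIP1 are members with an ERE that matches all 10 fixed positions, and ADAMTSL5 and RCOR3 are among the 3 strongest members. With positions counted from 1 at the 5′ end of the 13 bp element, ADAMTSL5 carries the substitution T9G, and RCOR3 carries G1T and G2C.
MANEAL, chr1:37793465-37793525, plus strand: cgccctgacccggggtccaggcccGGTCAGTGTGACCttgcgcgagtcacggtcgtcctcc
PXDN, chr2:1692724-1692784, minus strand: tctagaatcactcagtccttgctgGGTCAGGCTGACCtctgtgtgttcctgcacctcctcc
PIP5KL1, chr9:127928270-127928330, minus strand: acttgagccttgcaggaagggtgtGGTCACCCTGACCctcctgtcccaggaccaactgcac
AMOTL2, chr3:134375144-134375204, minus strand: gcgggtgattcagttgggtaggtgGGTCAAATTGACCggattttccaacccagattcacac
NRIP1, chr21:15065617-15065677, minus strand: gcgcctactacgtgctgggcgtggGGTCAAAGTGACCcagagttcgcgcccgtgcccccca
ADAMTSL5, chr19:1513204-1513264, minus strand: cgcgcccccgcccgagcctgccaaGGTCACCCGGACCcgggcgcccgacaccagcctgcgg
RCOR3, chr1:211258999-211259059, plus strand: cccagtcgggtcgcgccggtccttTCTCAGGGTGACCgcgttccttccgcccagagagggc

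The second set shows the summit base and 50 bp on each side for 3 very strong members with no ERE at up to 2 mismatches, with CpG dinucleotides in capitals. The windows of RGS10 and FRMD5 hold 11 CpG dinucleotides each and that of PTMA 8, and all 3 regions were CpG-rich by the rule given with the CpG results.
PTMA, chr2:231707852-231707952, plus strand: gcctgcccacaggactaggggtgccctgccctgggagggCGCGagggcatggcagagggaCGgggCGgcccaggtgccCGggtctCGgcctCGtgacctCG
RGS10, chr10:119542842-119542942, minus strand: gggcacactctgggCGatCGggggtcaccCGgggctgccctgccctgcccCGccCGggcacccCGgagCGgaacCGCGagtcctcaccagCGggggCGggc
FRMD5, chr15:44194744-44194844, minus strand: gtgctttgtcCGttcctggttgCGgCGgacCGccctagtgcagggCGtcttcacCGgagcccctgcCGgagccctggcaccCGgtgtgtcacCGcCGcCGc

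The third set shows windows of the same size at ZBTB38 and TRAF4 members, which have an exact AP-1 site, in capitals, and no ERE at up to 2 mismatches.
ZBTB38, chr3:141368358-141368458, plus strand: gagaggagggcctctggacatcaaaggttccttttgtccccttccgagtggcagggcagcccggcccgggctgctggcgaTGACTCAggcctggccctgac
TRAF4, chr17:28746203-28746303, plus strand: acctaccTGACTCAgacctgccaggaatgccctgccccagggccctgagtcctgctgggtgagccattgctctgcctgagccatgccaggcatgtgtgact

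Most members were weak. Strength is given as the authors' fold, the ChIP signal over the local background at the summit, and as the −log10 q of their peak caller. The median fold was 7.0 (quartiles 5.58 and 11), and the range ran from 3.17 to 196. Only 214 members (5.30%) had a fold of 50 or more and 68 (1.68%) a fold of 100 or more. Regions outside promoters had a median fold of 10.4 and bidirectional regions 6.35.

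The highest quartile of the whole estradiol list by −log10 q, which began at 50.7, held 560 members (13.9%) and 27.3% of the regions outside promoters. The odds ratio was 0.428 (adjusted p = 3.2e-80 over 38 tests, Fisher's exact test on regions, two-sided), with a difference of -13.4 percentage points (95% interval -14.6 to -12.2). Against the 8.38% of bidirectional regions the members were more often in that quartile (odds ratio 1.76, adjusted p = 0.0039 by Fisher's exact test). Regions of a pooled list are not replicates, so these tests describe positions within the list and not differences between cultures. Within the CpG-rich and CpG-poor classes, pooled by the Mantel-Haenszel method, the odds ratio against regions outside promoters was 0.885 (95% interval 0.794 to 0.986).

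The 10 strongest members by −log10 q were those of ADAMTSL5, MANEAL, RCOR3, FRMD5, PTMA, RGS10, FBXO34, ARHGEF39, NEDD4L and CUEDC1, and all 10 were in all 3 lists. ADAMTSL5 encodes a secreted ADAMTS-like protein. Its region (chr19:1512727-1513914, in an intron, summit at -123 relative to the TSS) had a fold of 196 in the estradiol list, 135 in that of LY500307 and 43.3 in that of ethanol. Its 1-mismatch ERE lay 78 bp from the summit. At MANEAL, an endomannosidase-like gene, the region (chr1:37793146-37794000, intergenic, summit at -377) reached 188, 69.8 and 44.3 in these lists. RCOR3, a corepressor of the CoREST family, had folds of 186, 83.5 and 29.9 at chr1:211258712-211259423, in one of its introns.

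These members were picked by their strength in the estradiol list. Folds of different lists depend on each list's own depth, so they are set side by side and not compared. A fold given for LY500307 or ethanol is that of the overlapping region with the highest −log10 q. The summit of that region can lie elsewhere. PTMA, which encodes prothymosin alpha, had folds of 183.5, 123.5 and 31.3. RGS10, a regulator of G protein signalling, had 174, 109 and 23.8. NEDD4L, a ubiquitin ligase, had 171, 86.6 and 24.1, and FRMD5 had 160, 119 and 45.1. Of these 10 members, 7 were CpG-rich, 1 had a perfect ERE, 1 an ERE with 1 mismatch and 3 an ERE with 2 mismatches.

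Overlap with the other treatments was counted from 1 bp. Of the members, 1174 (29.1%) overlapped an LY500307 region, against 33.8% of all estradiol regions, and 458 (11.3%) overlapped an ethanol region, against 9.26%. By list, 2732 members (67.6%) were in the estradiol list alone, 849 (21.0%) also in the LY500307 list, 325 (8.05%) in all 3 and 133 (3.29%) in the estradiol and ethanol lists without LY500307. The LY500307 list held 10045 regions and the ethanol list 2905, so absence from a shorter list does not show absence of binding.

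Strength and overlap went together. Members in all 3 lists had a median fold of 29.9, those shared with LY500307 only 14.7, those shared with ethanol only 6.25 and those of estradiol alone 6.30. Their median widths, in the same order, were 616, 435, 390 and 296 bp. The part of width in an overlap counted from 1 bp was not tested. In the strongest decile of all estradiol regions there were 256 members, of which all overlapped an LY500307 region and 52.7% an ethanol region. Over all estradiol regions of that decile the shares were 100% and 50.4%. In the weakest decile there were 854 members, of which 8.31% overlapped LY500307 and 4.57% ethanol. All estradiol regions of that decile stood at 9.26% and 5.30%, so overlap also rose with strength over the whole list. Of the 68 members with a fold of 100 or more, 62 (91.2%) were also in the ethanol list. Over the 1174 members shared with LY500307 the 2 folds had a Spearman correlation of 0.84, and over the 458 shared with ethanol 0.61. Both are given as descriptions, since the regions within a list come from the same libraries and are not replicates.

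Members overlapped LY500307 regions less often than regions outside promoters did, 29.1% against 34.8% (odds ratio 0.767, adjusted p = 1.8e-12 by Fisher's exact test, difference -5.75 points, -7.27 to -4.20). Within deciles of −log10 q the direction turned: the Mantel-Haenszel odds ratio was 2.0 (1.81 to 2.22). Within CpG classes it was 0.920, with an interval of 0.845 to 1.002. The deciles were not alike. In decile 1, with 854 members, 8.31% of members and 9.58% of regions outside promoters overlapped an LY500307 region, and in decile 2 the shares were 11.5% and 9.36%. In decile 5 they were 24.8% and 7.56%, where their ratio was largest. In decile 9 they were 96.0% and 92.8%, and in decile 10 both were 100%.

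Overlap with ethanol was more common in members than outside promoters, 11.3% against 8.90% (odds ratio 1.31, adjusted p = 2.9e-06 by Fisher's exact test, difference 2.44 points, 1.43 to 3.52). The odds ratio was 1.79 (1.59 to 2.02) within deciles of −log10 q. Within CpG classes it turned to 0.894 (0.79 to 1.01). CpG-rich regions outside promoters overlapped ethanol in 14.9% of cases and CpG-rich members in 12%. With only the 2188 members at a canonical TSS it was 1.11 (unadjusted p = 0.17 by Fisher's exact test). Against bidirectional regions neither overlap passed the test: 24.3% for LY500307 (difference 4.74 points, -0.0803 to 9.07, adjusted p = 0.072) and 8.65% for ethanol (difference 2.69 points, -0.746 to 5.35, adjusted p = 0.13, both by Fisher's exact test).

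**Figure D1:**
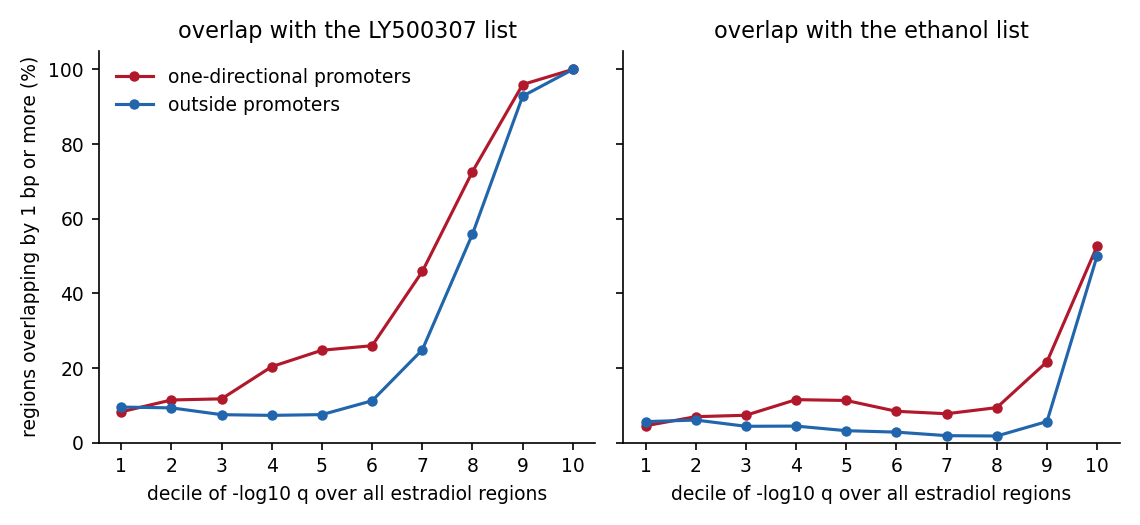
Share of regions (%, vertical axis) that overlapped an LY500307 region (left) or an ethanol region (right) in each decile of −log10 q of the whole estradiol list (horizontal axis, 10 strongest), for regions at one-directional promoters (red) and outside promoters (blue). For LY500307 the members stood at 8.31% against 9.58% in decile 1 and at 24.8% against 7.56% in decile 5, and both classes reached 100% in decile 10.

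The strongest members without an LY500307 region were those of TEF, SPATA12, CLDN5, TP53I11 and CHRM4. Their estradiol folds ran from 35.5 at TEF, a PAR-type leucine zipper transcription factor, to 27.7 at CHRM4, a muscarinic acetylcholine receptor. CLDN5, a tight junction claudin, had a fold of 32.5. These 5 were also absent from the ethanol list.

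The 133 members shared with ethanol but not with LY500307 were led by ALDH2, ATXN7, CIBAR1, CXorf58 and KAT5. ALDH2, the mitochondrial aldehyde dehydrogenase, stood at a fold of 14.3 after estradiol and 5.89 after ethanol. KAT5, a histone acetyltransferase, had 11.3 and 4.03. In this group 117 (88.0%) were CpG-rich and none of the 133 had an ERE at up to 1 mismatch (upper 95% limit 2.81%, Wilson). Members in the estradiol list alone had a similar median fold, 6.30 against 6.25. Of those, 76.0% were CpG-rich and 2.31% had an ERE, a difference that was not tested.

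CpG content divided the members. A window reaching 250 bp to each side of the summit was called CpG-rich when its observed-to-expected CpG ratio was at least 0.60 and its GC content at least 55%. By this rule 2992 members (74.1%) were CpG-rich, against 61.8% of the 19687 canonical protein-coding promoters measured the same way 100 bp upstream of the TSS. Outside promoters 13.4% were CpG-rich (odds ratio 18.4, difference 60.7 points, 59.2 to 62.1) and at bidirectional promoters 88.1% (odds ratio 0.386, adjusted p = 4.6e-10 by Fisher's exact test). Since members were chosen at promoters, the comparison with regions outside them cannot tell a trait of binding from one of promoters. The median member had 44 CpGs in that window and a GC content of 67.3%, and the median region outside promoters 7 CpGs and 50.5%.

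CpG-poor members were the stronger class. Their median fold was 9.50 against 6.50 for CpG-rich members, and 27.4% against 9.12% were in the highest quartile of strength (odds ratio 0.266 for CpG-rich, adjusted p = 2.4e-43 by Fisher's exact test). An ERE at up to 1 mismatch was found in 10.1% of CpG-poor and 2.07% of CpG-rich members (odds ratio 0.188, adjusted p = 1.1e-24 by Fisher's exact test). CpG-poor members overlapped LY500307 more often, 35.8% against 26.7% (odds ratio 0.653, adjusted p = 7.3e-08 by Fisher's exact test), but within deciles of −log10 q the odds ratio turned to 2.49 (1.96 to 3.17). Ethanol overlap was 12% in CpG-rich and 9.46% in CpG-poor members (odds ratio 1.31, adjusted p = 0.038 by Fisher's exact test), and the odds ratio was 2.60 (1.97 to 3.43) within those deciles.

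Values of each CpG class were set beside those of the same class outside promoters. The 3013 CpG-rich regions outside promoters had a median fold of 6.63, an ERE in 2.46% and an AP-1 site in 2.46%. CpG-rich members stood at 6.50, 2.07% and 2.17%. CpG-poor regions outside promoters had a median fold of 11.5, an ERE in 17.8% and an AP-1 site in 17.7%, each above the CpG-poor members at 9.50, 10.1% and 12.1%. The differences in median fold and AP-1 share within a CpG class were not tested.

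**Figure D2:**
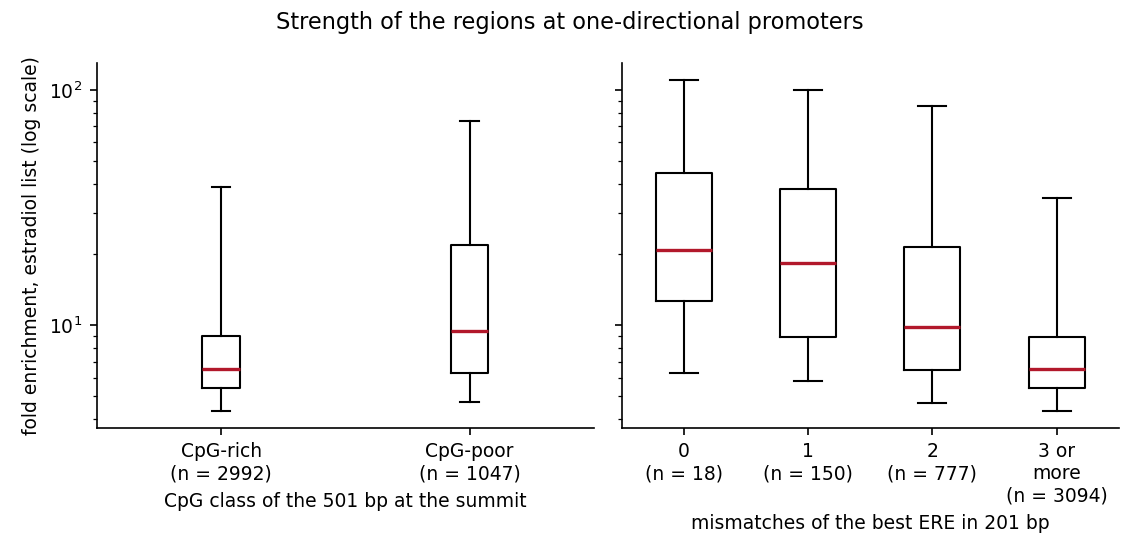
Fold enrichment of the 4039 regions at one-directional promoters (vertical axis, log scale) by CpG class (left) and by the fewest mismatches of an ERE within 100 bp of the summit (right). Red lines are medians, boxes quartiles and whiskers the 5th and 95th percentiles; the median fell from 21.0 with no mismatch to 6.50 with 3 or more.

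EREs were sought as GGTCANNNTGACC on either strand within 100 bp of each summit, with up to 1 mismatch in the 10 fixed positions. They were present in 168 members (4.16%, 95% Wilson interval 3.59 to 4.82), against 13.8% of all estradiol regions and 0.345% of all protein-coding promoters in windows of the same length. Outside promoters the share was 15.7% (odds ratio 0.233, adjusted p = 4.8e-106 by Fisher's exact test). The odds ratio stayed below 1 within quintiles of GC content (0.492, 0.416 to 0.582), within deciles of −log10 q (0.308, 0.262 to 0.361) and within CpG classes (0.580, 0.488 to 0.690). At bidirectional promoters 2.16% had an ERE (difference 2.0 points, -0.127 to 3.25, adjusted p = 0.088 by Fisher's exact test).

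A perfect ERE was found in 18 members (0.446%), and 945 (23.4%) had one at up to 2 mismatches, against 5.86% of all promoters. In the 168 members with an ERE its centre lay a median of 12 bp from the summit, and in 124 (73.8%) within 25 bp. Members with an ERE had a median fold of 18.7, and 62.5% overlapped LY500307 and 26.8% ethanol. Regions outside promoters with an ERE had a median fold of 14.5, with 41.6% and 11% overlapping, a difference that was not tested. An ERE was found in 0.351% of members in the weakest decile of −log10 q, 18.2% in decile 9 and 14.1% in decile 10.

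Members with a perfect ERE differed widely in strength. The 5 strongest were MANEAL, SLC29A1, PXDN, PIP5KL1 and SLC35B2. SLC29A1, the equilibrative nucleoside transporter ENT1, had folds of 111, 50.4 and 16.2 in the estradiol, LY500307 and ethanol lists. PXDN, the matrix peroxidase peroxidasin, had 64.3 and 17.2, and PIP5KL1, a phosphatidylinositol kinase-like gene, 64.3 and 12.8, both without an ethanol region. SLC35B2, a sulfate donor transporter of the Golgi, had 46.7, 13.8 and 4.83. At NRIP1, the corepressor RIP140, the perfect ERE shown above lay 44 bp from the summit of a region with a fold of 15.6 that was in the estradiol list alone.

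The half-site GGTCA alone, within 25 bp of the summit on either strand, was present in 976 members (24.2%) and in 6.64% of all promoter windows. It was counted after the ERE shares had been seen. In CpG-rich members the share was 17%, against 5.33% of CpG-rich promoters. In CpG-poor members it was 44.7%, against 8.75% of CpG-poor promoters. Without any ERE at up to 2 mismatches, 530 members (13.1%) still had such a half-site, against 18.6% of regions outside promoters and 5.68% of all promoter windows counted the same way. With or without an ERE, 48.9% of regions outside promoters had one. The summit is where the signal peaks and the promoter windows were placed at a fixed distance from the TSS, so these backgrounds differ in placement as well as in binding.

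AP-1 sites (TGAGTCA) were in 192 members (4.75%), against 15.7% of regions outside promoters (odds ratio 0.269, adjusted p = 4.6e-92 by Fisher's exact test) and 2.64% of all promoters. Of these 192, 174 had no ERE, with a median fold of 9.97 and an LY500307 overlap of 30.5%. The 18 members with both motifs had a median fold of 24.1. ZBTB38, a zinc finger protein that binds methylated DNA, had folds of 112, 47.3 and 9.14 in the 3 lists, and TRAF4, an adaptor of the TNF receptor family, 65.4 and 32.2 with no ethanol region.

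The extended half-site AAGGTCA was in 5.72% of members and 15.4% of regions outside promoters (odds ratio 0.332), and 195 of its 231 members had no ERE. TEAD sites (GGAATG) were in 7.63% against 18.0% (odds ratio 0.377) and RUNX sites (TGTGGTT) in 1.66% against 5.67% (odds ratio 0.280). All 3 passed Fisher's exact test and stayed below 1 within quintiles of GC content, at 0.695, 0.698 and 0.690. FOXA sites (TGTTTAC) were in 0.867% against 1.82%, but within GC quintiles the odds ratio was 0.987 (0.687 to 1.42).

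Motifs of core promoters showed the opposite order between members and regions outside promoters. SP1 and KLF sites (GGGCGG) were in 52.1% of members, 14.6% of regions outside promoters (odds ratio 6.36) and 56.7% of all promoters. ETS sites (CCGGAAG) were in 6.71%, 1.79% and 10.8%, and NRF1 sites (GCGCNTGCGC) in 1.63%, 0.174% and 7.16%. CREs (TGACGTCA) were in 0.693%, 0.143% and 2.48%, and E-boxes (CACGTG) in 5.50%, 3.02% and 6.96%. All 5 differed from regions outside promoters (the highest adjusted p was 1.7e-08, for CRE, by Fisher's exact test), with odds ratios of 1.68, 2.01, 2.71, 3.66 and 1.40 within GC quintiles. Members were chosen for lying at promoters, so these tests cannot tell a trait of bound regions from one of promoters. The shares of all 5 were higher in all promoters than in members. YY1 sites (ATGGCGGC) were in 2.60% of members, 0.432% of regions outside promoters (odds ratio 6.15) and 1.27% of all promoters. The windows of all promoters sat at a fixed distance from the TSS and included bidirectional promoters. Member summits varied in position, so shares of core promoter motifs, the CCAAT box included, differ in placement as well as in binding.

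The CCAAT box changed sides with base composition. CCAAT was in 11.3% of members, 17.1% of regions outside promoters and 30.5% of all promoters, with an odds ratio against regions outside promoters of 0.620 (adjusted p = 6.7e-21 by Fisher's exact test). Within GC quintiles it was 1.17 (1.04 to 1.32). Members also had fewer sites of 4 factors than bidirectional regions: ETS (6.71% against 11.4%, adjusted p = 0.0034), NRF1 (1.63% against 3.78%, adjusted p = 0.010), CRE (0.693% against 2.43%, adjusted p = 0.0044) and YY1 (2.60% against 4.59%, adjusted p = 0.042, all by Fisher's exact test). For YY1 the odds ratio against bidirectional regions was 0.626 (0.369 to 1.06) within deciles of −log10 q. The extended half-site was more frequent than at bidirectional promoters (5.72% against 2.70%, adjusted p = 0.017 by Fisher's exact test), with an odds ratio of 1.85 (0.969 to 3.55) within GC quintiles. A match of letters is a description and not a bound site.

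**Figure D3:**
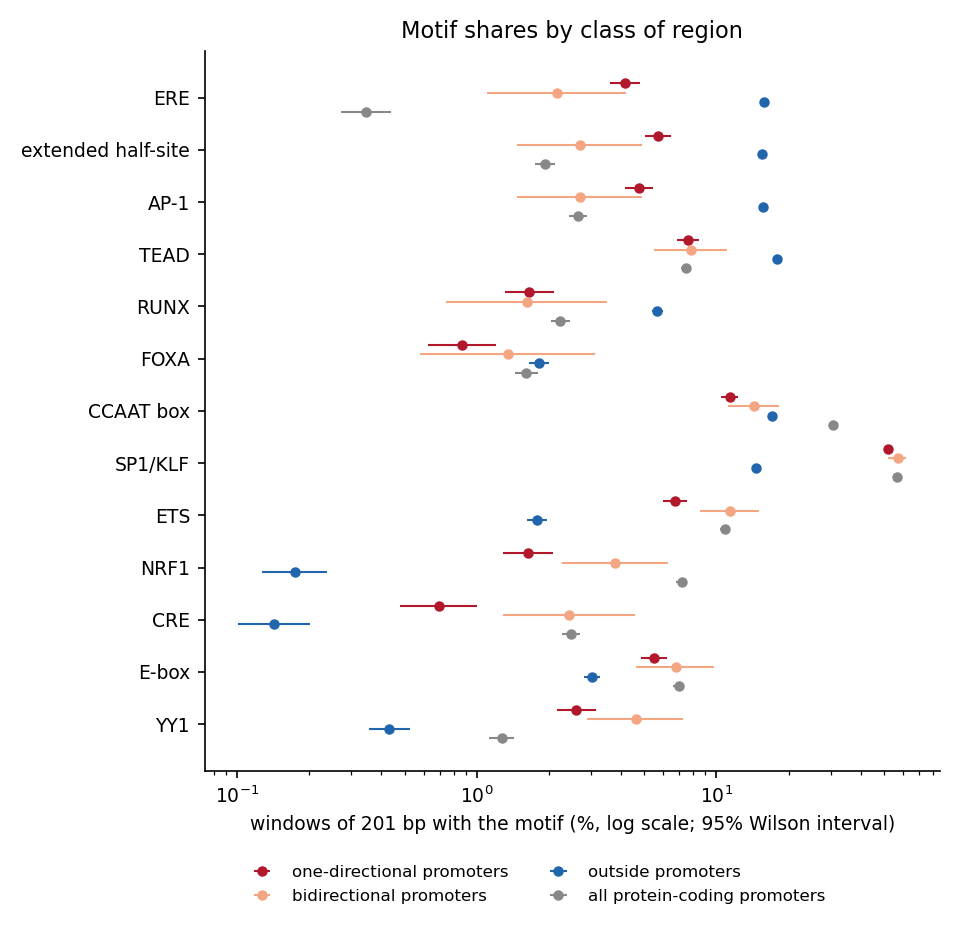
Share of windows of 100 bp to each side of the centre with each motif (horizontal axis, %, log scale) for regions at one-directional promoters, at bidirectional promoters and outside promoters, and for all protein-coding promoters. Points are shares and bars 95% Wilson intervals; for the ERE the members at 4.16% sat between all promoters at 0.345% and regions outside promoters at 15.7%.

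Summits clustered toward the nearest start site. The median summit lay 198 bp upstream of the nearest hit TSS, 1498 members (37.1%) lay within 100 bp of it and 851 (21.1%) downstream of it. Where a member hit several start sites the nearest was used, which shortens these distances. The farthest upstream of 6 bins of distance held 361 members, of which 45.4% were CpG-rich and 8.03% had an ERE. In the 100 bp downstream of the TSS 86.8% were CpG-rich and 2.59% had an ERE. Median folds ranged from 6.70 to 7.5 over these bins.

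**Figure D4:**
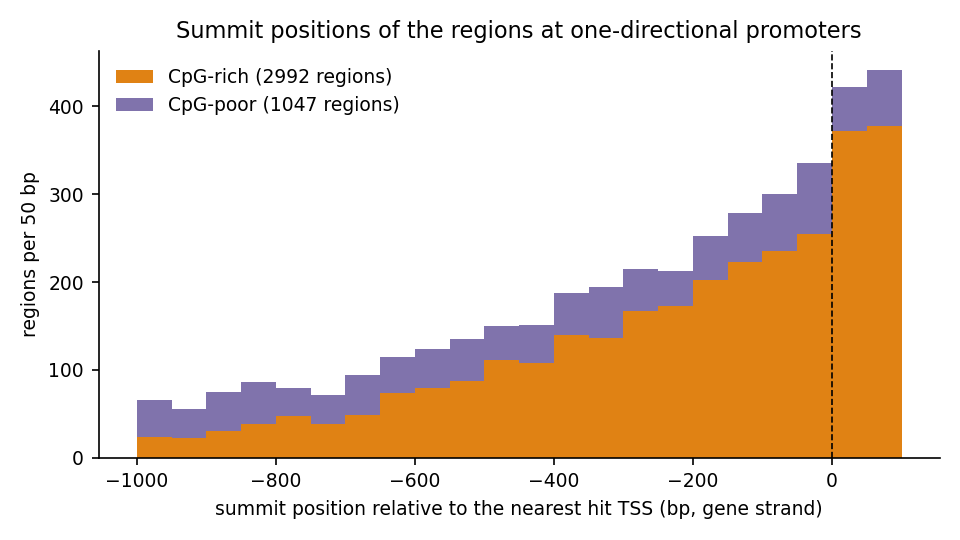
Number of regions per 50 bp (vertical axis) by the position of the summit relative to the nearest hit TSS (horizontal axis, bp, negative upstream), with CpG-rich regions in orange and CpG-poor in purple. Counts rose toward the TSS, where 1498 of 4039 summits lay within 100 bp, and the CpG-poor share was largest far upstream.

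By annotation 1453 summits (36.0%) were in introns, 1136 (28.1%) in 5' UTRs, 1090 (27.0%) between genes, 349 (8.64%) in coding exons and 11 in 3' UTRs of neighbouring or overlapping transcripts. Among the 4 larger of these groups the median fold ran from 8.0 in intergenic members, with 18.7% in the highest quartile of strength, to 6.30 in coding exon members, with 5.73%. The hit TSS was the canonical one of its gene for 2188 members (54.2%), and 1851 hit other protein-coding TSSs only. Median folds of these groups were 7.0 and 6.85. Members with a long non-coding RNA start on the other strand were CpG-rich in 88.1% of cases, the share of bidirectional regions, and 1.87% had an ERE.

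The 3 regions nearest to each edge of the window, on both sides, are given by their folds. Just inside the upstream edge, regions of OTUD6B, SLC25A25 and EXOC5 at -999, -999 and -998 had folds of 9.10, 8.05 and 5.95. Just outside it, regions near MYO18A, MORF4L1 and PAX7 had folds of 9.36, 8.04 and 7.15. Just inside the downstream edge, at 100 bp, EMC3, ZNF639 and GKAP1 had folds of 12.5, 7.15 and 5.81. Regions 1 bp beyond it, near DCBLD1, EPB41L5 and KIAA0513, had folds of 15.6, 9.0 and 7.5.

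The members lay at promoters of 3487 of 19689 protein-coding genes (17.7%), and 1124 genes (5.71%) had a member that overlapped an LY500307 region. A single member was found at 2978 of these genes, 509 genes had 2 or more and 70 had 3 or more. CLIP4, NRP1 and PLEC had 5 each, and ANKRD11 and ANXA2 had 4. At NRP1, a co-receptor for VEGF and semaphorins, the estradiol folds were 97.4, 44.4, 14.9, 10.3 and 6.25 over several start sites, and the first of these was in all 3 lists. At CLIP4 the folds ran from 4.91 to 8.04 and at ANXA2, which encodes annexin A2, from 4.91 to 20.8. Genes with a member had a mean of 5.69 annotated start sites and genes without one 3.62, and a gene with more start sites has more windows in which a region can count. Gene expression was not analysed here, and a region at a promoter is not evidence that the gene responds.

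Gene lists are given as counts beside the 17.7% of all genes, without a test. Among estrogen response genes 10 of 26 (38.5%) had a member. PDZK1, a scaffold protein, had folds of 130, 40.5 and 14.3 in the estradiol, LY500307 and ethanol lists, and GREB1, a coregulator of estrogen receptors, had 72.0, 31.5 and 5.49. KRT19 had 48.6 and 27.0 and TFF1, a secreted trefoil peptide, 36.0 and 8.35, both without an ethanol region. NRIP1, KRT8, RARA, CTSD, MYC and TPD52L1 had lower folds, from 15.6 down to 6.50. With canonical start sites only, the list's share was 15.4%, against 11.6% of all genes.

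Receptors and their partners came next. Of 48 nuclear receptors 13 (27.1%) had a member, and 12.5% with canonical start sites only, against 11.6% of all genes. NR2F6, an orphan receptor of the COUP family, had folds of 79.1, 40.7 and 7.45. ESRRA, the estrogen-related receptor alpha, had 83.4, 30.2 and 5.67, and NR1H3, the oxysterol receptor LXR alpha, 45.7, 29.1 and 5.49. Of 22 coregulators 12 (54.5%) had one, and 31.8% with canonical start sites only. NCOA1, the coactivator SRC-1, had folds of 112, 53.2 and 8.54, and the p160 family member NCOA2 61.4, 12.9 and 7.33. The other 10 coregulators had estradiol folds from 4.55 to 15.8, among them EP300, MED1 and NCOA3. Of 11 AP-1 factors only JUND had a member, with folds of 137, 65.7 and 18.9.

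Signalling lists varied. NF-kB subunits and regulators had members at 12 of 20 genes (60.0%). The inhibitor gene NFKBIA had folds of 70.2, 50.3 and 13.4, BCL3 56.3 and 23.5, and IKBKG, the scaffold of the IKK complex, 58.0 and 25.1. The subunits RELA, REL, NFKB1 and NFKB2 had weak regions, with folds from 5.18 to 7.0. In the Hippo pathway 11 of 23 genes (47.8%) had one, led by AMOTL2, an angiomotin family gene, with 23.2 and 7.12 and a perfect ERE, and by the kinase gene LATS2 with 20.1 in the estradiol list alone. With canonical start sites only, these shares were 30% and 17.4%, against 11.6% of all genes. Of 52 genes of TGF-beta, activin and BMP signalling 15 (28.8%) had one. FST, the activin-binding follistatin, had 114 and 47.8, SKIL, a SMAD corepressor, 52.7, 16.0 and 6.50, and SMAD3 40.9 and 11.2.

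Metabolic and housekeeping lists varied in strength. Cholesterol synthesis and uptake had 12 of 25 genes (48.0%, and 28.0% with canonical start sites). TM7SF2, a sterol reductase, had folds of 77.4 and 34.8 in a region inside the 3' UTR of VPS51, SREBF1, the regulator of lipid synthesis, 77.4 and 26.9, and DHCR7, which makes cholesterol in the last step, 62.5 and 13.1. Cytosolic ribosomal proteins had 19 of 77 genes (24.7%), mitochondrial ones 19 of 78 (24.4%), proteasome subunits 15 of 48 (31.2%) and DNA replication factors 10 of 41 (24.4%). The median folds of their strongest members were 5.60, 6.15, 5.36 and 6.75, against 7.15 over all member genes. With canonical start sites only, the shares of these 4 lists were 14.3%, 19.2%, 16.7% and 12.2%, against 11.6% of all genes. The list of cyclins, their kinases and inhibitors, which also holds the E2F transcription factor gene E2F8, had 10 of 37 (27.0%). It was led by CDK5 with 32.4 and E2F8 with 28.6. Spliceosome proteins had 9 of 49 (18.4%), led by SNRPA1 with 50.9. Median folds of the strongest members were above those of all member genes in both, at 8.87 and 12.3, and in the cholesterol list the median was 6.50.

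Among large families, members lay at 120 of 508 ZNF genes (23.6%, 95% Wilson interval 20.1 to 27.5, and 15.9% with canonical start sites) and at 71 of 369 solute carriers (19.2%, and 14.4%). ZNF358 had folds of 100.5, 47.7 and 8.41, and SLC17A9, a vesicular nucleotide transporter, 128, 75.3 and 21.2. Of the matrix proteins 6 of 44 collagens (13.6%, and 4.55% with canonical start sites, led by COL7A1 with 31.5) and 1 of 12 laminins (LAMA5, with 65.2, 62.5 and 28.9) had a member. Of the integrins, receptors for the matrix, 6 of 26 (23.1%, led by ITGB2 with 13.7) had one.

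Among keratins 6 of 55 (10.9%) had a member. KRT36 had a fold of 23.4 in the estradiol list, 46.5 for LY500307 and 39.3 for ethanol. The latter folds are those of overlapping regions, whose summits can differ from that of the member. Of the families chosen as controls, olfactory receptors had no member at 390 genes (upper 95% limit 0.975%, Wilson) and synaptic receptors 5 of 64 (7.81%). The lists also differed in CpG content and in start sites per gene, and the part of these in the shares was not tested. CpG-rich canonical promoters made up 90.0% of the NF-kB list, 69.2% of the estrogen response list, 87.8% of the spliceosome list, 81.8% of the AP-1 factors and 0.513% of the olfactory receptors, against 61.8% of all genes. The mean number of start sites per gene was 5.50 in the NF-kB list, 4.69 in both the estrogen response genes and the synaptic receptors and 1.32 in the olfactory receptors, against 3.99 over all genes. The CpG-rich share and the mean number of start sites were 90.9% and 5.32 in the coregulator list. They were 96% and 5.16 in the cholesterol list.

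**Figure D5:**
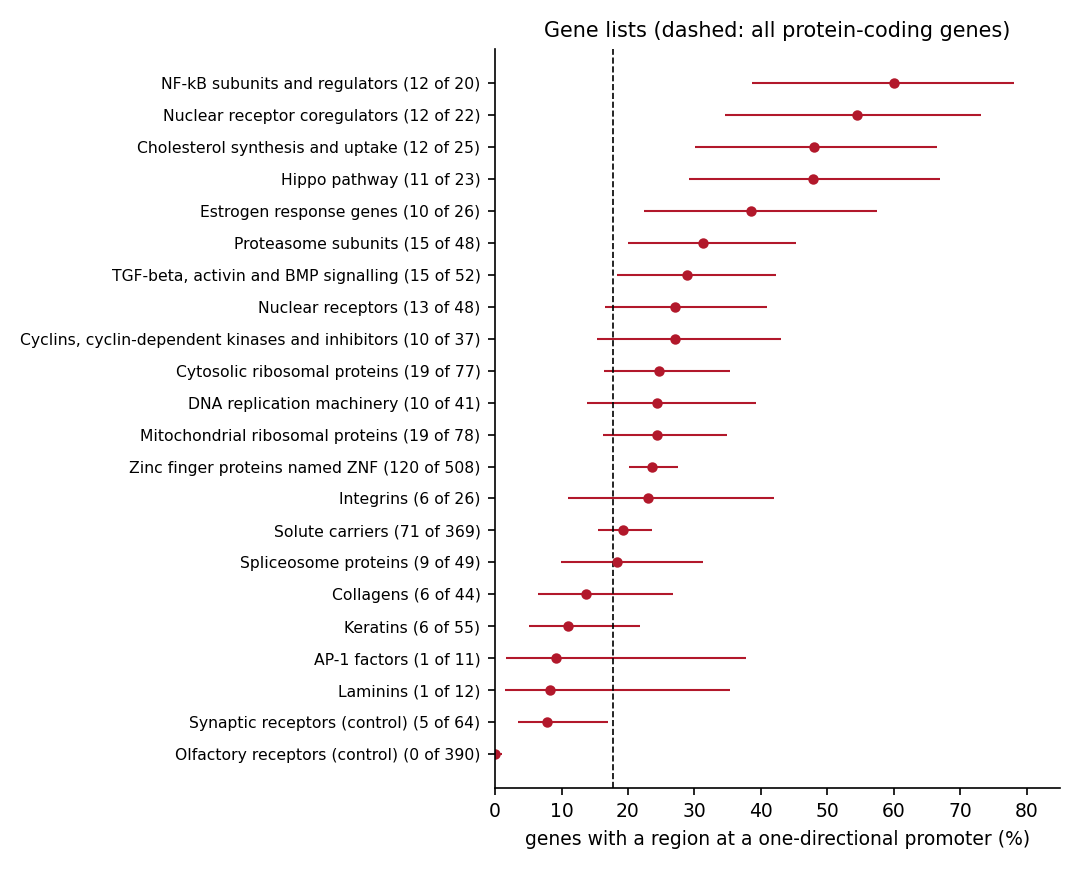
Share of the genes of each list shown with a region at a one-directional promoter (horizontal axis, %), with 95% Wilson intervals as bars and the number of genes beside each name. The dashed line marks the 17.7% of all protein-coding genes, and the NF-kB list at 60.0% and the olfactory receptors at 0 are the extremes.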

How the data were processed

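The deposited data were 3 lists of enriched regions, 1 per treatment, from ChIP-seq for Flag-tagged ER-beta with input controls. Tools listed in the submitters' processing notes, without roles, are MACS2 2.1.1.20160309, Bowtie2 2.2.6 and DiffBind, with the build hg38. The deposited fold of each region is the authors' ratio of ChIP signal to local background, and the deposited −log10 q is that of their peak caller. The summit offset is a position, not a signal. Lists were taken as pooled, since 4 ChIP libraries are labelled per treatment and 1 list is given for each.

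Only regions on the numbered chromosomes and X and Y were used. Summits were classed by all TSSs of protein-coding transcripts of protein-coding genes in GENCODE 44. Gene symbols are those of GENCODE. Tests of shares were Fisher's exact, two-sided, on regions, with Benjamini-Hochberg adjustment over 38 tests. Differences carry Newcombe 95% intervals, and odds ratios within strata are Mantel-Haenszel. For simple odds ratios 0.5 was to be added to cells where one was 0, but no cell of the 38 tests was 0. Shares carry 95% Wilson intervals, which cover counting only. Computations used Python 3.11.15, scipy 1.17.1, statsmodels 0.14.6 and pysam 0.24.0, and the tests were tested on simulated data. The alternatives covered the window, the TSS set, thresholds on fold and −log10 q, the kind of overlap, mismatches and window sizes.

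Members, the 23 gene lists and the naming rule were chosen with earlier results of these data known. The rule named the 10 strongest members by −log10 q, the 5 strongest with a perfect ERE, with no ERE at up to 2 mismatches, without an LY500307 region, with ethanol and no LY500307 region and among CpG-rich members, the 3 strongest per gene list, the 3 on either side of each window edge and up to 5 genes with the most members. Other genes of the lists and the AP-1 examples were named after their values were seen. Results for 1 of the lists and for a few genes are not reported here.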

Additional observations from a re-analysis of the deposited data

How the results depend on the processing

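The number of members was 6688 with a window of 1000 bp on both sides of the TSS and 2381 with canonical TSSs only, and stayed within 1.5 times of 4039 under the other alternatives. The share overlapping LY500307 was 20.5% when at least 50% of both regions had to overlap and 26.6% with summits within 200 bp. The share overlapping ethanol was 5.22% and 9.66% under these rules, 9.80% with a fold of 5 or more in all lists and 9.74% with canonical TSSs only. The share with an ERE was 0.446% with no mismatch, 23.4% with up to 2 mismatches and 4.85% within 200 bp of the summit, and the CpG-rich share was 56.9% at a CpG ratio of 0.75. Within deciles of −log10 q the odds ratio for LY500307 overlap reversed to 2.0 against regions outside promoters and to 2.49 for CpG-rich against CpG-poor members. Within CpG classes the LY500307 odds ratio was 0.920 (0.845 to 1.002) and the ethanol odds ratio reversed to 0.894. The ethanol odds ratio was 1.11 (p = 0.17, Fisher's exact test) at canonical TSSs and, for CpG-rich against CpG-poor members, 1.22 (p = 0.057, Fisher's exact test) at a CpG ratio of 0.75. The CCAAT odds ratio reversed to 1.17 within GC quintiles. The causes of these shifts were not tested. The alternatives within CpG classes, at canonical TSSs for the comparisons and the half-site count were chosen after seeing the data. No paired analysis was possible because each treatment had 1 pooled list and no list carries a replicate number. Depth is unknown, so weak regions missing from the shorter lists cannot be told from regions that were not bound.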

Other observations

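The promoters of the other lists largely repeated those of the estradiol list. By the same rule 1316 of 10045 LY500307 regions (13.1%) and 514 of 2905 ethanol regions (17.7%) lay at one-directional promoters. Of these, 90.3% and 91.1% overlapped an estradiol region, against 92.1% and 86.2% of the other regions of those lists. Their median folds were 6.83 and 6.02, below the 8.79 and 7.32 of the other regions.

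Member genes were unevenly spread over the chromosomes. Chromosome 15 had a member at 22.8% of its 589 protein-coding genes and chromosome 20 at 22.7% of 537. The X chromosome had one at 5.74% of 853 genes and chromosome 13 at 9.69% of 320. No reason for this was tested, and copy number, which differs along the genome of this line, was not analysed here.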
